A study of Mus musculus with 9 samples.

Results

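The regions described here are 312 stretches of mouse autosomes other than chromosome 11 at which every KDM6A library of the series had an interval and the IgG library had none. KDM6A, also called UTX, is a histone demethylase that removes the repressive mark placed by Polycomb repressive complex 2. It works with the KMT2C/KMT2D methyltransferase complexes at enhancers and promoters and is not known for binding a DNA sequence of its own. In embryonic stem cells it is studied for its part in switching on lineage genes during differentiation. MTX is the usual abbreviation of methotrexate, an antifolate that blocks dihydrofolate reductase.

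The series used chromatin immunoprecipitation with sequencing in Sv129 mouse embryonic stem cells grown on gelatin with leukemia inhibitory factor. Cells given 0.12 µM MTX for 24 h, labelled as folate deficient, gave 2 KDM6A libraries and 1 IgG library, in which a nonspecific antibody measures background. Control cells, labelled wild type, gave 2 KDM6A libraries. The treatment field reads neurodevelopment for every sample, so MTX is taken from the titles and the treatment protocol. Inputs of both kinds of cell are labelled too and were not analysed here as libraries of their own. The labels do not tell separate cultures from repeat libraries, so p-values here measure the spread between libraries, which may be technical. Interval lists hold no expression, so the cell type could not be checked against markers.

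Members were chosen by merging touching or overlapping intervals of the 4 KDM6A lists into 82424 regions. Of these, 2132 held an interval of every KDM6A library. On autosomes other than 11, 851 of those overlapped an IgG interval by 1 bp or more and 312 (26.8%) did not. The rule thus used the interval calls themselves, and everything that rests on reads over background in these libraries is given as a description. Lists held 24177 and 28976 intervals in MTX libraries 1 and 2, 44838 and 21228 in control libraries 1 and 2, and 22843 in IgG. Reads within intervals numbered 3251202 to 4192029 per library, and the full depth is unknown.

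The membership depended on each library and on the IgG list. Requiring the other 3 libraries alone gave 842 regions without MTX library 1, 697 without MTX library 2, 609 without control library 1 and 908 without control library 2. Letting only IgG intervals with a deposited adjusted p under 0.05 remove a region gave 524. The IgG library analysed here is of MTX cells, and it shared its background with MTX library 1, since all 52 intervals identical in both lists carried the same background count. Absence of IgG here means that no IgG interval was listed, not that no IgG reads lay there.

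Some transcription start sites lay in the regions, and those covered by most libraries had few CG pairs, the sites of DNA methylation that mark many promoters. Their number was not set against the length that the members cover. Of the promoter windows of RefSeq (GRCm38.p6, 250 bases before to 50 after a start), 24 genes had at least 1 within a member, and 2 of these had a base in intervals of all 4 libraries. Of the following 4 windows, the first and second are those 2, the third was covered by 3 libraries and the fourth, rich in CG, by 2. Capitals mark CG, read on the printed strand, and the search for CG is the same on both strands.
1700061I17Rik: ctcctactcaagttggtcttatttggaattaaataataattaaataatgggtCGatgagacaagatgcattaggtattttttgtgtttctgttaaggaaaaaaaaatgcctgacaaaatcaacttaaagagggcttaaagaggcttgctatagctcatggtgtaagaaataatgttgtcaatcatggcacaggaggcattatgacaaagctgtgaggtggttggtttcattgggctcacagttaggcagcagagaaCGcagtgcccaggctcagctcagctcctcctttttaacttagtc
Gm5373: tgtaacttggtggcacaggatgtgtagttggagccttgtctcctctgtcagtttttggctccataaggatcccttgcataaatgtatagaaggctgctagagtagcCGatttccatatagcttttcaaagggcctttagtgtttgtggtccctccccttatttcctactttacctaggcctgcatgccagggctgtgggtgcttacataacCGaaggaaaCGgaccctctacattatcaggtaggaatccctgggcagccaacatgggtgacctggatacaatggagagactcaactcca
Ubd: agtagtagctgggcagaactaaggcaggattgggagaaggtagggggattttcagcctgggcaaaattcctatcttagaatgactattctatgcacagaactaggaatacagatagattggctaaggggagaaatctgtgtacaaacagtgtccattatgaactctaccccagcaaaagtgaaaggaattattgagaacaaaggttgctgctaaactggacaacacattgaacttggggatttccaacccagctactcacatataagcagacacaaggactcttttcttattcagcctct
Pfn4: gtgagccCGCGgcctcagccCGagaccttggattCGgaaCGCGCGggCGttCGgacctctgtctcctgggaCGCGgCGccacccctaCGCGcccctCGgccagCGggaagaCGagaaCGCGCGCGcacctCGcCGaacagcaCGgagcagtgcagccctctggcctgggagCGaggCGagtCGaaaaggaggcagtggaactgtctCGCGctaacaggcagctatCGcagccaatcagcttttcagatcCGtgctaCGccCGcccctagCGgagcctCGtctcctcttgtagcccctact

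The window of 1700061I17Rik, a long noncoding RNA (chr3:117077716-117078015, minus strand), held 2 CG pairs, and 85.9% of all promoter windows held as many or more. That of Gm5373, a predicted protein-coding gene (chr8:71858068-71858367, minus strand), held 3, a number reached by 76.6% of windows. That of Ubd, a ubiquitin-like modifier (chr17:37193642-37193941, plus strand), held none. That of Pfn4, a profilin (chr12:4769045-4769344, plus strand), held 35, reached by 7.14% of windows, and was covered by MTX library 2 and control library 1. Over all 24 genes the median was 3 CG pairs, with 5 genes (20.8%) at 15 or more. Over the 29107 windows of the same autosomes the median was 7, with 34.6% at 15 or more. Each of the 24 genes counts by its window with the most CG, while the 29107 hold every window. Some of the 5 genes share a member, as Pfn4 and Fam228b do. In the 5 genes covered by 3 or 4 libraries, which also include Morc2b and the olfactory receptor gene Olfr968, the median was 2 and none reached 15. These counts describe the windows and were not tested.

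One microRNA gene lay in a member, Mir128-1, in R3hdm1 on chromosome 1, at chr1:128202361-128202430 on the plus strand. Its mature product miR-128-3p is shown with its seed, bases 2 to 8, in capitals.
mmu-miR-128-3p: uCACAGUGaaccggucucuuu
The hairpin was covered by an interval of control library 1 alone, within a region (chr1:128198001-128216600) whose folds were 1.24 and 1.61 in the MTX libraries and 1.45 and 1.34 in the control libraries. Membership of the region therefore says nothing of the hairpin itself.

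Most members were chains of partly overlapping intervals and not places where the 4 libraries coincided. At only 109 of 312 members (34.9%, exact 95% interval 29.7 to 40.5%, counting error only) was any base covered by all 4 libraries. The most covered base had exactly 3 libraries in 165 members (52.9%) and exactly 2 in 38 (12.2%). Among the 851 regions that overlapped IgG the shares were 60.2% (56.8 to 63.5%) with all 4, 32.9% with 3 and 6.93% with 2 at the most covered base.

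**Figure D1:**
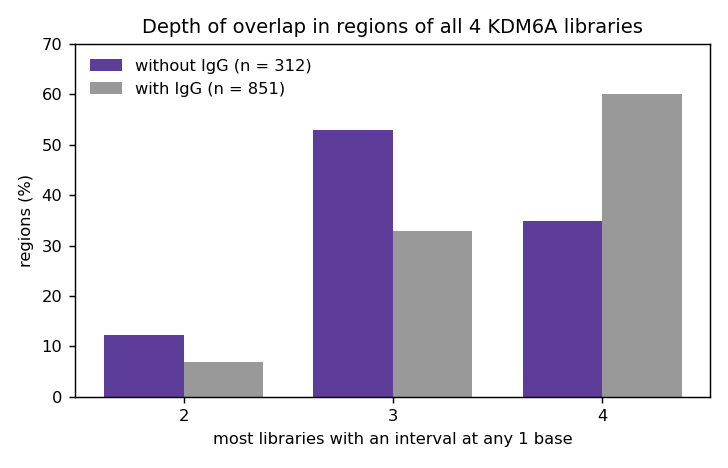
Percent of regions (y axis) by the largest number of KDM6A libraries with an interval at any 1 base (x axis), for regions without IgG (purple, n = 312) and with IgG (grey, n = 851). All 4 libraries met in 34.9% of the regions without IgG and in 60.2% of those with IgG.

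The regions were wide and the common stretches short. Members spanned 400 to 29400 bp with a median of 10100 bp, and the longest stretch common to all 4 libraries had a median of 1200 bp and a range of 200 to 3400 bp. It reached 1 kb in 72 members and 2 kb in 22. Regions with IgG had a median width of 11600 bp and a median common stretch of 2000 bp. Of all bases in members, 43.5% lay in intervals of 1 library and 4.65% in those of all 4, beside 29.8% and 21.5% in regions with IgG.

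The lower share of common stretches held at each width. Under 8 kb, 50 of 84 members (59.5%) had a common stretch, beside 192 of 213 regions with IgG (90.1%). From 8 to 12 kb the shares were 27.2% and 50.8%, and at 12 kb and over 24.3% and 49.8%. Regions are not replicates of each other and come from the same 4 libraries, so these shares are set side by side without a test.

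No library stood apart as the one that failed to coincide. Among the 165 members whose most covered base had 3 libraries, a triple without MTX library 1 occurred in 63, without MTX library 2 in 58, without control library 1 in 54 and without control library 2 in 62. Intervals of both MTX libraries overlapped in 74.4% of members and those of both control libraries in 79.8%. The 4 pairs of an MTX and a control library overlapped in 80.1 to 84.3%, so libraries of the same treatment did not coincide more often than libraries of different treatments.

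**Figure D2:**
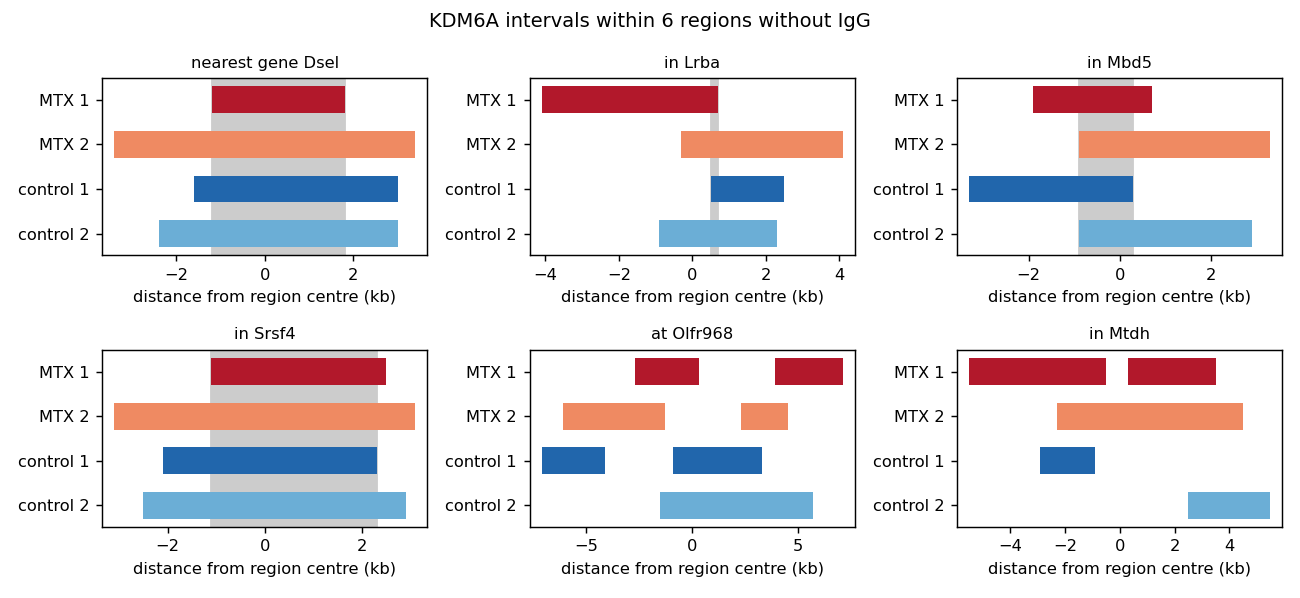
Intervals (bars) of each KDM6A library in 6 of the regions without IgG, against the distance from the centre of the region in kb (x axis). Grey bands mark bases covered by all 4 libraries, which are 3000 bp wide near Dsel, 200 bp in Lrba, 1200 bp in Mbd5 and 3400 bp in Srsf4, and there are none at Olfr968 or in Mtdh.

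The members with a common stretch that ranked best were led by Lrba, Mbd5 and regions outside genes. The order goes by the percentile of the best interval, by deposited p and then fold, in the library where it ranks worst. A region's fold divides the immunoprecipitated reads by the background reads, each summed over a library's intervals in the region, on the authors' scale. At Lrba, which encodes a vesicle trafficking protein, the region chr3:86469401-86477600 had folds of 2.02 and 1.71 in the MTX libraries and 2.39 and 1.65 in the control libraries. The groups overlapped, and the longest stretch common to all 4 was 200 bp, at 86474001 to 86474200.

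Outside genes, 35348 bp from Dsel, a dermatan sulfate epimerase-like gene, the region chr1:111900401-111907200 had 122 and 231 reads in the MTX libraries and 112 and 172 in the control libraries. Its folds were 1.98 and 1.62 in MTX and 1.65 and 1.49 in control cells. All 3000 bp covered by MTX library 1 were covered by the other 3 libraries too. A region further from the same gene, chr1:112320801-112329600, had folds of 1.70 and 1.84 in MTX and 2.41 and 1.50 in control cells, with control library 1 highest and control library 2 lowest.

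At Mbd5, a methyl-CpG-binding domain gene, the region chr2:49024801-49031400 had folds of 1.61 and 1.49 in the MTX libraries and 1.73 and 2.60 in the control libraries. Both control values were above both MTX values there, and 1200 bp were common to all. Dmxl1 on chromosome 18 had 1.29 ± 0.00294 in MTX and 1.47 ± 0.232 in control cells (SD, n = 2 each). Rabgap1, which encodes a GTPase-activating protein for Rab proteins, had 1.38 ± 0.117 in MTX and 1.66 ± 0.348 in control cells. Sfmbt1, which encodes a Polycomb-related protein, had 1.41 ± 0.158 in MTX and 1.47 ± 0.0182 in control cells. The other 3 lay outside genes and were nearest to Tmco5 on chromosome 2, Cntnap5a on chromosome 1 and Tmem215 on chromosome 4, with means of 2.49 ± 0.63, 1.42 ± 0.103 and 1.41 ± 0.195 in MTX cells and 1.74 ± 0.469, 1.65 ± 0.0918 and 1.98 ± 0.788 in control cells.

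The 5 longest common stretches had folds on both sides of the medians over members. The longest, 3400 bp, lay in Srsf4, a splicing factor gene, at chr4:131883401-131889600. Its folds were 1.15 and 1.08 in the MTX libraries and 0.975 and 1.05 in the control libraries, and no interval had a deposited adjusted p under 0.05. Usp54, of the ubiquitin-specific peptidase family, followed with 3200 bp (chr14:20552401-20560600) and folds of 1.10 and 2.12 in MTX and 1.52 and 1.13 in control cells. The values within each group differed more there than the group means did. Ahctf1, which encodes a protein of nuclear pore assembly, and a region 497 bp from the olfactory receptor gene Olfr1318 had 3000 bp, like the region near Dsel, with MTX means of 1.37 ± 0.223 and 1.66 ± 0.235 and control means of 1.51 ± 0.36 and 1.44 ± 0.216 (SD, n = 2 each).

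Folds over background were low throughout. The median over members was 1.36 and 1.40 in MTX libraries 1 and 2 and 1.45 and 1.33 in control libraries 1 and 2. The same medians in regions with IgG were 1.27 and 1.31 in MTX and 1.32 and 1.24 in control libraries, lower in each library. Over all intervals of these autosomes the median was 1.47 and 1.56 in MTX and 1.66 and 1.45 in control libraries. The median over the members' intervals was below it, at 1.36, 1.41, 1.46 and 1.33 in the same order. Median immunoprecipitated reads per kb were 33.4, 34.8, 28.4 and 33.5 in members and 37.3, 37.5, 30.8 and 37.3 in regions with IgG. Median background reads per kb were 26.6, 28.0, 25.5 and 26.3 in members and 30.7, 31.2, 30.2 and 30.7 in regions with IgG. The higher folds of members thus went with fewer reads over fewer background reads per kb in each library.

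**Figure D3:**
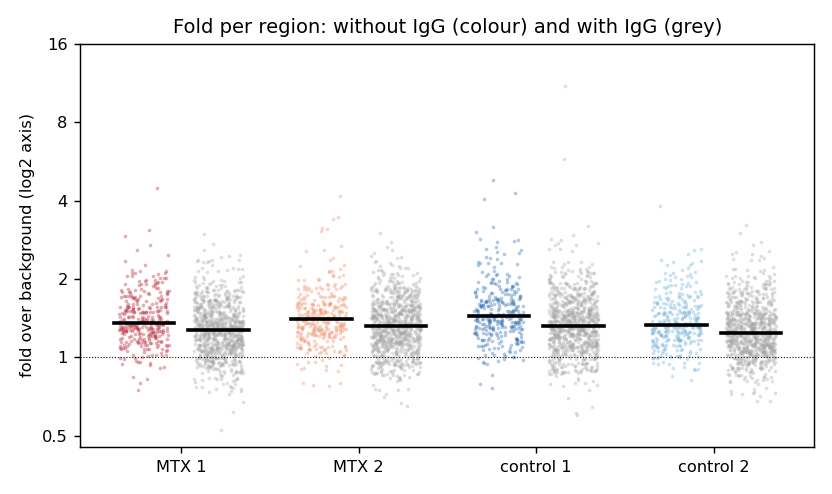
Fold over background (y axis, log2) of every region in each KDM6A library, for the 312 regions without IgG (colours) and the 851 with IgG (grey), with medians as black bars. Medians without IgG ran from 1.33 to 1.45 and those with IgG from 1.24 to 1.32.

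A fold above 1 in all 4 libraries was found in 265 members (84.9%), beside 69.9% of regions with IgG. No member and no region with IgG had a best interval above 2-fold in all 4. The best interval reached a deposited adjusted p under 0.05 in every library in 168 members (53.8%), beside 47.4% of regions with IgG. Of the 168, 54 also had a common stretch. In single libraries it did so in 81.1% and 84.6% of members in MTX libraries 1 and 2. In control libraries 1 and 2 it did so in 85.3% and 80.4%. Over all intervals of these autosomes, 82.1% and 88.3% passed in MTX libraries 1 and 2, and 87.1% and 84.4% in control libraries 1 and 2. Nothing is read from these shares, since the members were chosen from the same calls. Depth per region was modest, with medians of 134 and 148 reads in the MTX libraries and 106 and 155 in the control libraries, over medians of 108, 123.5, 102.5 and 124 background reads in the same order.

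The highest folds belonged to narrow intervals of a single library. In MTX library 1 the highest was 4.47 at Vmn2r27, a vomeronasal receptor gene (chr6:124219201-124225400), from 50 reads over 12 background reads in 800 bp, beside 1.53 in MTX library 2 and 1.22 and 1.33 in the control libraries. In MTX library 2 it was 4.17 at Gspt1, a translation termination factor gene (chr16:11222001-11235800), from 67 reads over 18, beside 1.30 in MTX library 1 and 1.16 and 1.10 in control libraries. In control library 1 it was 4.78 close to BC024063 (chr10:82113401-82124400), from 47 reads over 13, beside 1.50 and 1.10 in MTX libraries and 1.07 in control library 2. In control library 2 it was 3.81 at the predicted gene Gm11837 (chr4:14928801-14937800), from 128 reads over 35, beside 1.16 and 1.11 in MTX libraries and 1.44 in control library 1. Reads of receptor families and of predicted genes can map to more than 1 copy, so these places are uncertain.

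Libraries ranked the members by fold in different orders. Across the 312 members, Pearson's r of log2 fold was 0.14 between the MTX libraries, 0.11 between the control libraries and 0.11 to 0.23 over the 4 mixed pairs. Across the 851 regions with IgG it was 0.46, 0.35 and 0.43 to 0.46. The values are over regions that share libraries and backgrounds, which are no independent replicates, and are given as a description.

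Members lay inside genes more often than the other regions did, and their midpoints were at gene ends about as seldom. By midpoint, 65.7% (exact 95% interval 60.1 to 71.0%) of members lay inside a protein-coding gene, beside 53.8% (50.4 to 57.2%) of regions with IgG and 45.8% of all 73553 merged regions on these autosomes. Only 8 midpoints (2.56%) lay within 1 kb of a gene end, beside 2.70% and 3.81%. Of the common stretches, 73 of 109 lay inside genes and 3 at gene ends. Counting any base, 189 members were inside genes (60.6%), 31 touched a gene end (9.94%) and 92 lay elsewhere (29.5%). Regions with IgG had 44.8%, 18.1% and 37.1% in the same order. The 92 lay at a median of 81384 bp from the nearest gene. The exact intervals cover counting error over regions and are no test. Within width classes the share with a midpoint inside a gene was 58.3%, 69.6% and 67.0% of members under 8 kb, from 8 to 12 kb and at 12 kb and over, beside 38.5%, 59.3% and 58.7% of regions with IgG. Among the 26 regions that the better 50% of each list leaves, 38.5% were inside genes counting any base.

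**Figure D4:**
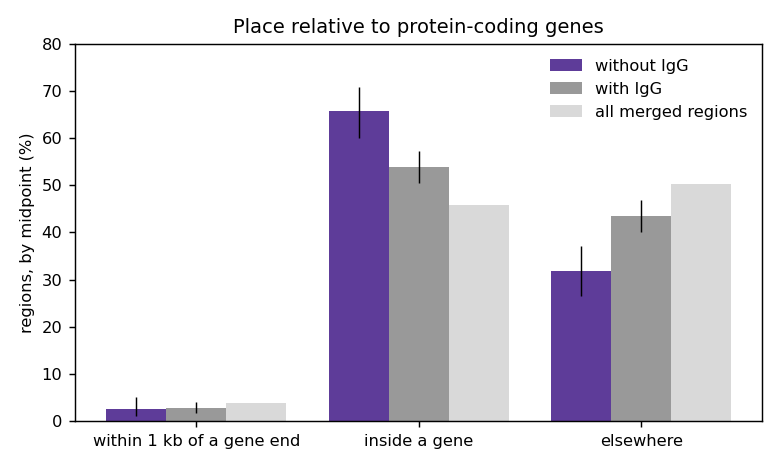
Percent of regions (y axis) whose midpoint lay within 1 kb of an end of a protein-coding gene, inside a gene or elsewhere, for regions without IgG (purple), regions with IgG (grey) and all merged regions (light grey), with exact 95% intervals as bars for the first and second. Inside genes the values were 65.7%, 53.8% and 45.8%.

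Genes that held members were long, as were those with IgG. The 211 genes overlapped by members had a median length of 103 kb, beside 85.0 kb for the 410 genes overlapped by regions with IgG and 17.9 kb for all protein-coding genes. Of the 211, 12 were over 500 kb (5.69%, beside 5.37% and 1.10%). They included Dlg2, a synaptic scaffold gene, Magi2, of the same class, and Pde4d, a cyclic AMP phosphodiesterase gene with 2 members. A long gene offers more bases to any region, and the part of length in these counts was not tested.

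In all, 14 genes held more than 1 member each, a count read from the data and not set by a rule. Stag1, which encodes a cohesin subunit, held 3 (100734001 to 100953800 on chromosome 9), and Nipbl, which encodes the cohesin loader, held 2 on chromosome 15. The longest region of Stag1, chr9:100784401-100799800, had 2600 bp common to all libraries and folds of 1.14 and 1.41 in MTX and 1.38 and 1.22 in control cells. Dis3l2, an exoribonuclease gene, and Srgap2, a gene of neuronal migration, held 3 each on chromosome 1, and none of these 6 had a common stretch. Bmpr1a, a receptor for bone morphogenetic proteins, held 2, with folds of 1.26 to 1.62 in the MTX libraries and 1.18 to 1.55 in the control libraries. Members of the same gene are neighbours and not independent.

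Gene ends with an interval of every library were few and weakly enriched. Apart from predicted symbols, 5 genes had one. At Gpr137b, a lysosomal membrane protein gene (chr13:13354401-13360600), folds were 1.30 and 0.975 in MTX and 1.20 and 1.52 in control libraries, and an IgG interval lay 400 bp away. At Ubd (chr17:37193001-37199400) they were 1.38 and 1.70 in MTX and 1.27 and 1.32 in control libraries, with 800 bp in common. Both MTX folds were above both control folds there. The test on summed reads, given below, had the other direction, with a log2 change of MTX over control of -0.79 (SE 0.42, edgeR adjusted p = 0.998). Zfp667, a zinc finger gene on chromosome 7 whose region also overlaps Zfp583, had folds of 0.908 and 1.84 in MTX and 1.69 and 1.30 in control libraries. Olfr878 and Olfr968, on chromosome 9, had MTX means of 1.24 ± 0.172 and 1.69 ± 0.292 and control means of 1.25 ± 0.157 and 1.64 ± 0.217 (SD, n = 2 each).

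Few of the listed genes had a member, as few genes of any kind did. Of 19052 protein-coding genes on these autosomes, 214 (1.12%) had a member within the gene or its 1 kb windows. None of 9 genes of the KDM6 and KMT2C/KMT2D complexes, of 15 Polycomb genes, of 29 pluripotency genes, of 27 folate and one-carbon genes or of 29 Hox genes was among them. At 1.12%, lists of this size would hold less than 1 gene on average, so the zeros carry little weight.

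Among neural tube closure genes, 1 of 37 had a member, Vcl, which encodes vinculin, a protein of cell adhesions. Its folds were 1.24 and 1.19 in MTX and 1.05 and 1.49 in control libraries, and the groups overlapped. Of 26 p53 and DNA damage genes, 1 did, Atm, the DNA damage kinase gene, with 1.14 and 1.69 in MTX and 1.37 and 1.83 in control libraries. Of 39 long genes of neural adhesion and synapses, 2 did, Dlg2 and Magi2. Dlg2 had 1.51 and 1.76 in MTX and 1.82 and 1.50 in control libraries. Magi2 had 1.18 and 1.60 in MTX and 1.56 and 1.17 in control libraries. The shares of these 3 lists were 2.70%, 3.85% and 5.13%, beside 1.12% of all protein-coding genes. Regions with IgG reached 8.11%, 3.85% and 12.8% of the same lists, beside 2.20% of all. Dlg2 was among the genes with such a region too.

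Multigene families made up a small part of the members. There were 5 of 1021 olfactory receptor genes (0.49%), 2 of 354 vomeronasal receptor genes (0.565%) and 6 of 370 Zfp genes (1.62%). Regions with IgG reached 1.57%, 1.98% and 5.41% of the same families, and 2.20% of all protein-coding genes. Olfr564 on chromosome 7 had 1.48 and 2.37 in MTX and 2.10 and 1.41 in control libraries, and Vmn2r58 had 2.10 and 1.29 in MTX and 1.61 and 1.32 in control libraries. Zfp964 on chromosome 8 had 1.37 and 1.47 in MTX and 1.80 and 1.61 in control libraries, with both control values above both MTX values. Its log2 change of MTX over control in summed reads had the other direction, at 0.42 (SE 0.58, edgeR adjusted p = 0.998).

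The gap to the nearest IgG interval had a median of 11100 bp and a range of 0 to 494000 bp, and 149 members lay within 10 kb of one. Just inside the rule, 5 members touched an IgG interval, and one of them, 220356 bp from Trps1 on chromosome 15, had folds of 1.31 and 1.70 in MTX and 1.59 and 1.87 in control libraries. Just outside it, 5 regions overlapped IgG by 200 bp, and one of them, in Cntnap5a, had folds of 1.47 and 2.12 in MTX and 1.56 and 3.24 in control libraries. Chromosome 1 held 39 members (12.5%) and chromosome 9 held 26 (8.33%), beside 10.2% and 5.81% of all merged regions on these autosomes. Regions with IgG numbered 140 and 60 on chromosomes 1 and 9. Members thus made up 21.8% and 30.2% of the regions of all 4 libraries there, beside 26.8% over these autosomes. The share ran from 16.1% (chromosome 12, 10 members) to 43.3% (chromosome 15, 13 members).

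No region differed between MTX and control cells by the test on reads. edgeR's quasi-likelihood test, with Benjamini-Hochberg adjustment over all 2132 regions of the 4 libraries, called 0 regions higher (0%) and 0 lower (0%) in MTX cells at an adjusted p under 0.05. At an unadjusted p under 0.05 there were 73 regions (3.42%), of which 10 were members (3.21% of members), 2 higher and 8 lower. limma on log2 folds called 0 too, with 69 at an unadjusted p under 0.05. Without control library 1 edgeR called 3 regions higher and without control library 2 it called 1, none a member. These fits hold 1 control library, which is assumed to vary like the MTX libraries, so the calls are not read as a difference between the groups. DESeq2 called 8 higher and 8 lower, 3 of them members, all lower in MTX cells. These were in Gspt1, in Dis3l2 (chr1:86803001-86813200) and 114621 bp from Otogl (chr10:108027001-108039200), with log2 fold changes of -2.09, -1.52 and -1.67 and DESeq2 adjusted p of 0.0114, 0.0332 and 0.0382. The median fitted log2 fold change of MTX over control was -0.03 over members and -0.03 over all regions, with 48.4% and 47.4% above 0. Scaling by list totals without TMM factors moved the median of all regions to 0.11 and put 59.6% of members and 58.9% of all regions above 0. A p that misses the threshold does not show that the groups are alike, since the median standard error was 0.53.

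The fitted change followed the width of the intervals. Across the 312 members the fitted log2 change had a Pearson's r of 0.93 with the log2 ratio of covered bases, a description over regions that share libraries. Reads and covered bases were both summed over each library's own intervals, so a wider interval adds reads by construction. The r is therefore not a separate result about KDM6A. With the covered bases as an offset the middle 50% of members ran from -0.18 to 0.08, against -0.35 to 0.29 without it.

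**Figure D5:**
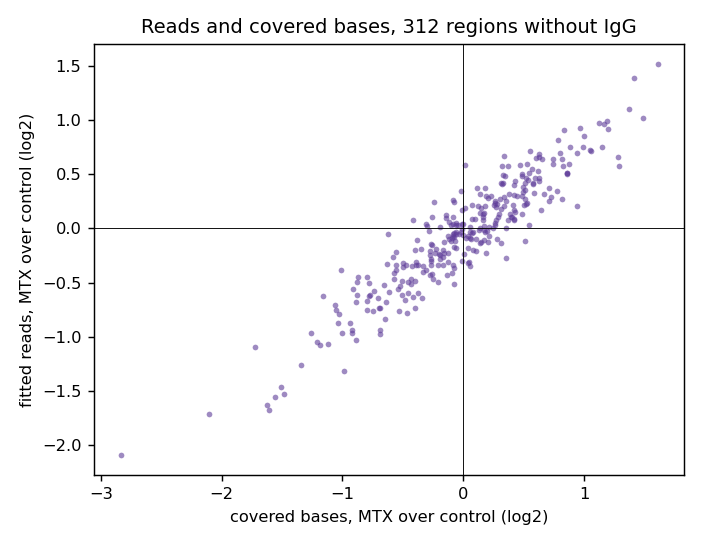
Fitted log2 fold change of reads (y axis) against the log2 ratio of covered bases (x axis), both MTX over control, for the 312 regions without IgG (points). Regions with more reads in MTX cells were those where the MTX intervals were wider (Pearson's r = 0.93), and both were summed over the same intervals.

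The members with the largest fitted changes show this. At Mtdh on chromosome 15 (34107001 to 34118000), reads numbered 302 and 223 in MTX and 64 and 103 in control libraries, over 8200 and 6800 bp in MTX and 2000 and 3000 bp in control libraries. The log2 fold change was 1.52 (SE 0.58, edgeR adjusted p = 0.998), and -0.10 with covered bases as an offset. Its folds were 1.30 and 1.22 in MTX and 1.02 and 1.06 in control libraries, so the MTX values were the higher ones on that scale. Ccdc18 on chromosome 5 followed with 1.39, then the region further from Dsel with 1.10, one 210537 bp from Dpp10 with 1.02, and Tfdp2, which encodes a partner of E2F factors, with 0.99. All 5 turned below 0 with covered bases as an offset.

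Gspt1 had the lowest fitted change, with 86 and 67 reads in MTX and 267 and 313 in control libraries, over 2200 and 1000 bp in MTX and 10000 and 11200 bp in control libraries. The log2 fold change was -2.10 (SE 0.61, edgeR adjusted p = 0.998), and 0.70 with covered bases as an offset. The regions near Otogl and Reep1 and the one in Phf20, a gene of a histone acetyltransferase complex, had -1.68, -1.63 and -1.56. Vmn2r27, with -1.10, was added from the vomeronasal receptor list and is not among the 5 lowest. Other members lay lower than it, such as one in Dis3l2 with -1.53. Of the 5 regions given here, Gspt1 and Vmn2r27 included, the region near Otogl stayed below 0 with covered bases as an offset. The other 4 turned above it.

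On the scale of folds, which takes the background into account, the groups overlapped in most members. Both MTX folds lay above both control folds in 56 members (17.9%), beside 14.6% of all 2132 regions, and below them in 51 (16.3%), beside 16.1%. In log2 fold, group means differed by a median of 0.20 in absolute value, and the median SD was 0.20 between the MTX libraries and 0.22 between the control libraries. An exact permutation test of 2 libraries against 2 cannot give a p under 0.333.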

How the data were processed

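Interval lists of 2 MTX and 2 control KDM6A libraries and 1 IgG library were analysed, grouped by sample title. Per the submitters' processing notes, Bowtie2 was used and the build was mm10. Which program called the intervals was not given in the sources used here. A separate list exists for each library. The deposited counts are whole immunoprecipitated and background reads per interval, without normalization. Dividing these counts and multiplying by a constant per list gives the deposited fold, a ratio, and the deposited p-values and adjusted p-values compare the same counts. Interval borders fall on a 200 bp grid. Coordinates are mm10, counted from 1.

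All intervals were kept. Overlap means at least 1 bp. Region folds were recomputed from summed counts with the list's constant. Genes came from a RefSeq table of GRCm38.p6 without strand, with 1 kb windows at either end of a gene. Of the gene list members, 1 (of the p53 and DNA damage list) was not found as protein-coding. Reads were tested with edgeR 4.0.16 in R 4.3.3 (TMM, no filter, no block), with DESeq2 1.42.0 and limma 3.58.1 as alternatives. In simulated data for this comparison, 59% of 200 regions changed 4-fold were recovered among 2132, with 7 false calls. The simulation gave all regions a common dispersion and had no interval widths that differ between libraries. The share recovered need not hold for the real counts. Exact (Clopper-Pearson) 95% intervals cover counting error only.

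The members, gene lists and named regions were chosen with earlier results of these data known. Named regions are the 10 best ranked members with a common stretch, the 5 with the longest stretch, the 5 highest and 5 lowest fitted changes, those nearest the IgG threshold, gene ends with an interval of every library, and up to 6 per gene list. One of the 5 lowest is not reported here. Any other region or gene was named after its values were seen.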

Additional observations from a re-analysis of the deposited data

How the results depend on the processing

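The number of members was 163 with KDM6A intervals of a deposited adjusted p under 0.05, 26 in the better 50% of each list, 524 when only IgG intervals with an adjusted p under 0.05 removed a region, and 531 with chromosome 11. Members with a common stretch then numbered 48, 4, 283 and 201. Requiring 3 libraries, leaving out each in turn, gave 609 to 908 members, 385 to 556 of them with a stretch common to the 3. The share of members inside genes was 38.5% in the better 50%, 52.1% with the stricter IgG list and 50.8% with chromosome 11. Merging only overlapping intervals, an IgG overlap of at least 10% and a 1 kb distance to IgG moved both counts by less than 1.5 times.

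DESeq2 called 8 regions higher and 8 lower in MTX cells, 3 of the lower ones members, and the offset by covered bases 4 and 4, none a member. Leaving out each library in turn, edgeR called 0 to 3 higher and 0 lower, with the spread taken from the 2 libraries of the other group alone. The replicate number as a block called 0 regions, with 113 at an unadjusted p under 0.05 against 73, and a median member change of -0.03. Same-numbered libraries share only a number by the labels.

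With covered bases as an offset, the changes became -0.10 at Mtdh, -0.00596 at Ccdc18, -0.29 near Dsel, -0.34 near Dpp10, -0.10 at Tfdp2, 0.70 at Gspt1, 0.00313 near Reep1, 0.24 at Phf20 and 0.63 at Vmn2r27. With background reads as an offset they were -0.0135 at Ccdc18, -0.0775 near Dsel, -0.14 near Dpp10, 1.09 at Gspt1, 0.23 near Reep1, 0.20 at Phf20 and 1.07 at Vmn2r27. With limma on log2 fold they were -0.0110, -0.10, -0.14, 1.03, 0.20, 0.21 and 1.01 in the same order. Each had the opposite sign in the test on summed reads, and the offsets replace width or background by construction. Of 110 values for the 10 regions (these and that near Otogl) under 11 alternatives, 85 kept direction and side of the threshold. Vmn2r27 is among the 10 by the vomeronasal receptor list and not by its fitted change. Median depths of 106 to 155 reads per member and library limit every fold.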
